A study of Mus musculus with 8 samples.

Results

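The genes on either side of Thra on mouse chromosome 11 were examined in nuclear RNA of cortical GABAergic neurons from mice with and without a mutant Thra allele. Members were the protein-coding and antisense genes of the GENCODE M21 annotation (build GRCm38) that start within 2 Mb of either end of Thra, from position 96740638 to 100769006. Thra itself, Med1, Erbb2, Rara, Hap1 and Kcnh4 were set aside by name. Of the 55450 genes in the count tables, 173 were members, 161 protein-coding and 12 antisense. A total of 76 members had 10 or more counts in at least 3 libraries and were tested, 74 of them protein-coding and 2 antisense. Another 43 had fewer reads, and 54 had 0 counts in all 7 libraries.

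Controls were Thra+/+ and mutants Thra+/AMI, a heterozygous allele whose receptor blocks the normal receptor's action and whose expression Cre restricts to GABAergic neurons. In both groups, nuclei marked by a Cre-dependent fluorescent reporter were sorted from the cortex of juvenile mice, so controls and mutants share the reporter and the driver. The driver gene, the strain background and the exact age were not given in the sources used here. The 4 control and 3 mutant libraries each came from 1 cortex. Control 4 and mutant 8 had 4 and 3 reads of 4 Y-linked genes, and the other 5 libraries had 5094 to 6644. By these reads, control 4 and mutant 8 were from females and the others from males. Each group thus held both sexes, and sex was not in the fits. The table of mutant 10 held the same counts as that of mutant 7 in all 55220 genes compared, and both were counted as 1 sample.

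Thra encodes a nuclear receptor that binds DNA and changes the transcription of its targets according to whether thyroid hormone is bound. Its neighbours include Nr1d1, read from the opposite strand and overlapping the end of Thra, several housekeeping genes, and a large cluster of type I keratin genes whose products build the filaments of epithelial cells. Genes near an engineered allele are inherited together with it, and the strain of the flanking segment is not given in the sources used here. Differences carried by that segment and differences made by the mutant receptor cannot be told apart in this design.

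Total counts ran from 10747169 to 13804734 per library, and the members together took 0.255% to 0.317% of the reads of controls and 0.299% to 0.32% of those of mutants. Control libraries held Thra at 114 ± 9.35 CPM (SD, n = 4) and mutant libraries at 87.5 ± 9.39 CPM (SD, n = 3), where CPM are counts scaled to a common library total with edgeR's TMM factors. Its log2 fold change of mutant over control was -0.39 (edgeR adjusted p 0.0543), and the groups did not overlap. DESeq2 called it lower at -0.39 (adjusted p 0.0303) and limma-voom at -0.43 (0.00359). So did edgeR with the length offset (0.00956), without control 1 (0.0275), without control 4 (0.0149) and without both (0.000755), while leaving out any of the other 5 libraries gave 0.0919 to 0.239. Counts add up both alleles. The 7 GABAergic markers summed to 2134 to 2512 CPM in controls and 2098 to 2526 CPM in mutants, with Dlx1 and Dlx6 listed at 0. Among 8 marker lists for other cells, the summed levels of 7 overlapped between the groups and 1 of 31 tested markers was called, the oligodendrocyte gene Mog. The exception was microglia, whose 5 markers summed to 11.6 to 16.1 CPM in controls and 17.0 to 19.2 CPM in mutants, with 0 of 4 tested called by edgeR and 1 each by DESeq2 and limma-voom (1 at an unadjusted p under 0.05). In bulk nuclei, fewer cells of a type and less RNA per cell cannot be told apart.

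Most neighbours of Thra were at similar levels in both genotypes, and 10 of 76 passed the test. Lower in mutants were Plxdc1 and Stac2 on the centromeric side and Krt222, A830036E02Rik and Krt20 on the telomeric side. Higher in mutants were Med24, Casc3 and Rapgefl1, which flank Thra closely, and Jup and P3h4, which lie at the telomeric end of the window. The 10 called members are 13.2% of those tested, against 9.42% of all 16448 tested genes (edgeR's quasi-likelihood test, adjusted p under 0.05 over all tested genes). Of genes of the same types on other chromosomes, 10.1% were called, and no test of the shares was made. The share of the members was not above that of all tested genes in every fit. The shares were 18.4% and 19.1% with limma-voom, 16.5% and 16.7% without controls 1 and 4, and 14.5% for both without control 4. The 5 lower members compare with 4.78% of all genes called lower, and the 5 higher members with 4.63% called higher. CPM did not overlap between the groups in 15 of the 76 members (19.7%), against 22.0% of all tested genes. The median log2 fold change was 0.01 over the members and -0.01 over all tested genes, and the median size without its sign was 0.17 and 0.21. The count of called members rested on single libraries, and the share of all tested genes fell with it. It was 5 without control 3, or 6.67% against 6.25% of all tested genes. Without mutant 6 it was 5 (6.49% against 4.55%) and without mutant 7 it was 4 (5.06% against 4.35%). Without control 4 and mutant 8 the count was 9 (11.5% against 8.53%). Of those, 6 were among the 10, and Med24, Rapgefl1, Krt222 and P3h4 were no longer called. Of the 6 genes set aside by name, Hap1 (log2 fold change 2.01), Rara (0.93) and Kcnh4 (0.91) were also called higher, which makes 13 of 82 with them (15.9%).

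**Figure D1:**
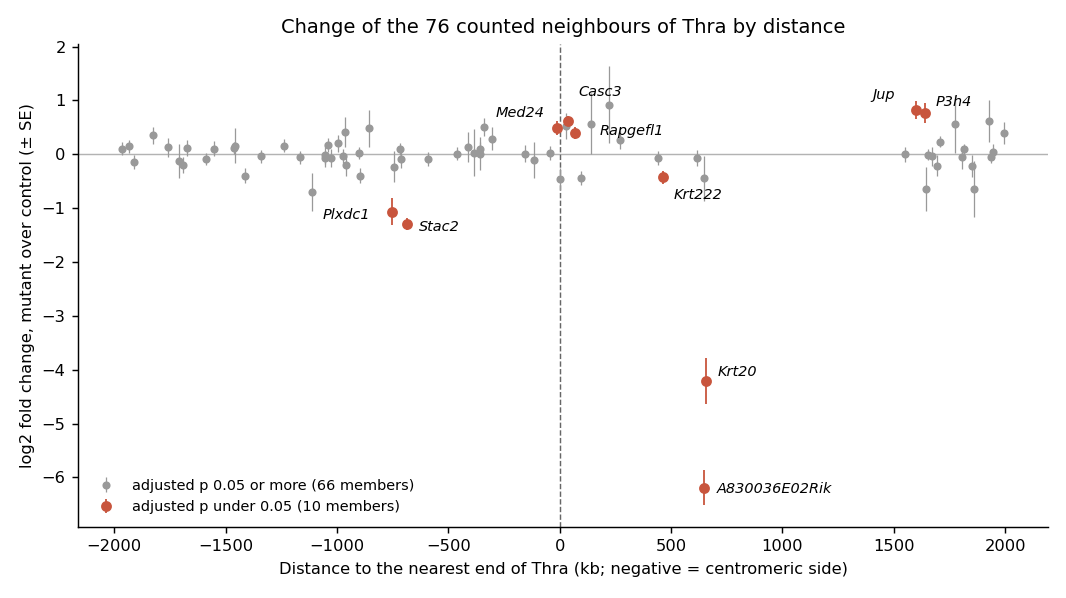
Log2 fold change of mutant over control (y axis, bars are the SE) against the distance of each of the 76 tested members from the nearest end of Thra in kb (x axis, negative toward the centromere), with the 10 called members in red. Most points lie near 0, and A830036E02Rik (-6.19) and Krt20 (-4.21) stand far below the rest at about the same distance.

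Within 0.25 Mb of Thra, 3 of the 11 tested members were called, all higher in mutants. Med24, a subunit of the Mediator complex that links transcription factors to RNA polymerase, ends 11.2 kb from Thra on the minus strand (98704591 to 98729435). Its level was 162, 125, 138 and 115 CPM in controls 1 to 4 and 199, 177 and 192 CPM in mutants 6, 7 and 8. The groups did not overlap, although control 1 came close to mutant 7. Mutants were higher by 0.49 on the log2 scale (SE 0.13, edgeR adjusted p 0.0325). It was no longer called without control 2 (adjusted p 0.11), control 3 (0.0835), mutant 6 (0.14), mutant 7 (0.0844) or mutant 8 (0.126), at log2 fold changes of 0.45 to 0.54 by edgeR.

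Casc3, a core component of the exon junction complex laid on spliced RNA, starts 35.9 kb beyond Thra on the plus strand (98804905 to 98833814). It was at 122.5, 128, 122 and 111.5 CPM in controls and 185, 179.7 and 189.5 CPM in mutants. All mutants lay well above all controls, with means of 121 ± 6.99 CPM (SD, n = 4) and 185 ± 4.91 CPM (SD, n = 3). The log2 fold change came to 0.61 (SE 0.10, edgeR adjusted p 0.00257), and the gene was called in each of the 16 alternative fits. Per kb of exon it had the highest mean level of the 76 members, 28.1 CPM per kb in controls and 42.9 CPM per kb in mutants. Of its exon bases, 11.5% are shared with Msl1 or an antisense gene, and reads there cannot be assigned to 1 gene.

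Rapgefl1, named for its likeness to exchange factors of the small GTPase Rap, starts 67.8 kb beyond Thra on the plus strand (98836785 to 98853697). Its level was 102, 91.3, 104 and 85.6 CPM in controls and 125, 131 and 122 CPM in mutants. Every mutant was above every control. The rise was 0.40 on the log2 scale (SE 0.11, edgeR adjusted p 0.0349). The call was lost without control 2 (adjusted p 0.11), control 3 (0.0606), mutant 6 (0.114), mutant 7 (0.158) or mutant 8 (0.103), while the edgeR log2 fold change stayed between 0.37 and 0.44.

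The other 8 members within 0.25 Mb were not called. Nr1d1, which encodes the clock repressor REV-ERB alpha, shares 14.5% of its span with Thra. It was at 25.5, 17.1, 19.9 and 18.2 CPM in controls and 12.9, 11.3 and 19.9 CPM in mutants, so mutant 8 lay among the controls. Its log2 fold change was -0.46 (SE 0.21, edgeR adjusted p 0.228). Without control 4 and mutant 8, the libraries with 4 and 3 reads of 4 Y-linked genes where the other 5 had 5094 to 6644, the value was -0.78 (edgeR adjusted p 0.0324). That pair was chosen after seeing the data, and the other 15 of the 16 alternative fits did not call Nr1d1. Leaving out 1 library gave -0.73 to -0.30 (edgeR adjusted p up to 0.593), and limma-voom gave -0.37 (adjusted p 0.177).

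Wipf2, which binds regulators of actin assembly, was the member closest to the threshold from outside. Its level was 40.1, 44.9, 44.5 and 54.5 CPM in controls and 36.7, 30.9 and 34.1 CPM in mutants, without overlap. Its fold change of -0.44 on the log2 scale missed the threshold (SE 0.13, edgeR adjusted p 0.0578), and without control 1 it was -0.49 (edgeR adjusted p 0.0186). DESeq2 called it at -0.44 (adjusted p 0.043) and limma-voom at -0.42 (adjusted p 0.00918). Of the 16 alternative fits, 5 called Wipf2 and 11 did not, and without mutant 7 it was -0.37 (edgeR adjusted p 0.25). Msl1, the scaffold of a histone acetyltransferase complex, did not overlap between the groups either. Its controls were at 3.09 ± 0.277 CPM (SD, n = 4) and its mutants at 4.45 ± 0.823 CPM (SD, n = 3), a difference of 0.52 on the log2 scale (SE 0.24, edgeR adjusted p 0.214). Casc3 and an antisense gene cover 82.2% of the Msl1 span.

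Psmd3, a subunit of the proteasome's regulatory particle, had a log2 fold change of 0.02 (SE 0.13). Ormdl3, a regulator of sphingolipid synthesis, was at 0.01 (SE 0.16), and the predicted gene Gm12355 at -0.11 (SE 0.33). These values changed sign in some alternative fits. Cdc6, which licenses DNA replication, and Top2a, a topoisomerase of dividing cells, were barely counted. Cdc6 had 7, 11, 15 and 1 reads in controls and 13, 9 and 14 in mutants. Top2a had 10, 0, 6 and 5 reads in controls and 15, 3 and 11 in mutants. Both groups overlapped in each, and Cdc6 turned to -0.01 without controls 1 and 4 from 0.57 with all libraries. The 4 markers of dividing cells summed to 0.831 to 2.62 CPM in controls and 1.80 to 2.81 CPM in mutants, with Ccnb1, Cdk1 and Aurkb below the minimum for testing.

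**Figure D2:**
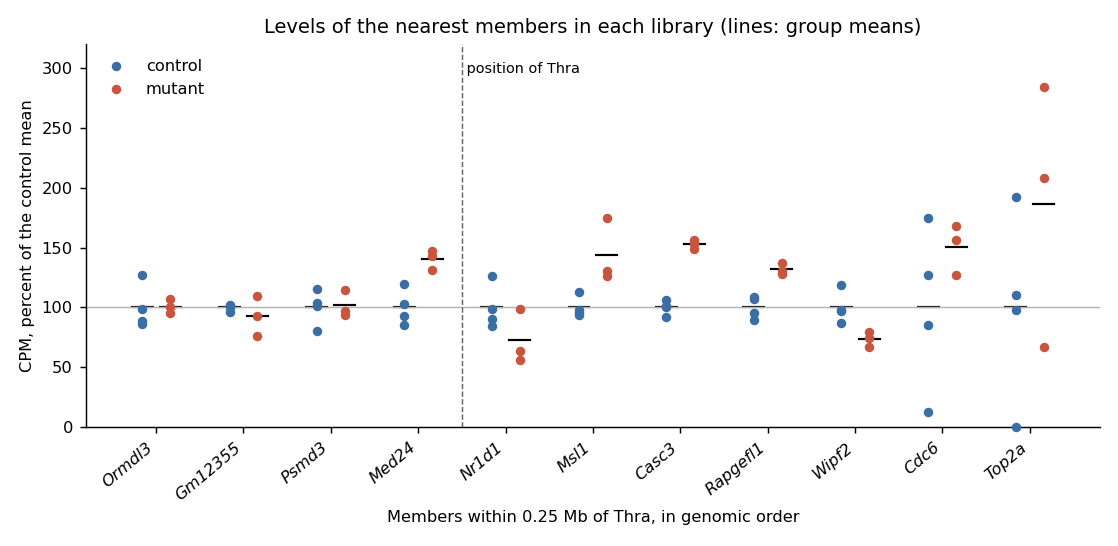
Level of the 11 members within 0.25 Mb of Thra in each library as a percentage of the control mean (y axis), in genomic order (x axis), with controls in blue, mutants in red, and group means as lines. Mutants lie above all controls for Med24, Msl1, Casc3 and Rapgefl1 and below all controls for Wipf2, while Psmd3, Ormdl3 and Gm12355 overlap.

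On the centromeric side, 45 members were tested and 3 were called, Plxdc1 and Stac2 lower and Med24 higher. Stac2, an adaptor that binds voltage-gated calcium channels, lies 687.2 kb from Thra on the minus strand (98036623 to 98053462). It was at 106, 107, 109 and 99.8 CPM in controls and 47.9, 39.2 and 42.1 CPM in mutants. The 2 groups were tight and far apart, at 105.5 ± 4.00 CPM (SD, n = 4) and 43.05 ± 4.42 CPM (SD, n = 3). Stac2 fell by 1.29 on the log2 scale (SE 0.11, edgeR adjusted p 2.65e-05), and it was called in each of the 16 alternative fits. It was among the 5 members with the highest mean level per kb of exon, at 33.6 CPM per kb in controls and 13.7 CPM per kb in mutants. No other annotated gene overlaps its span.

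Plxdc1, a transmembrane protein with a plexin-like domain first described in tumour blood vessels, lies 754.2 kb from Thra on the minus strand (97923238 to 97986444). Its level was 12.4, 8.61, 13.7 and 15 CPM in controls and 6.34, 3.95 and 7.35 CPM in mutants. Mutants lay below controls, with control 2 and mutant 8 the nearest pair. Its log2 fold change of -1.07 passed the test (SE 0.25, edgeR adjusted p 0.0194). The edgeR value was -1.02 without control 3 (adjusted p 0.0594), -1.13 without mutant 6 (0.0707) and -0.86 without mutant 7 (0.0994). The 4 endothelial markers overlapped between the groups, at 33.4 to 80.1 CPM in controls and 35.2 to 54.3 CPM in mutants, and none of the 4 was called by edgeR, DESeq2 or limma-voom (0 at an unadjusted p under 0.05). The part of endothelial RNA in the value of Plxdc1 was not tested.

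The 3 tested members between Plxdc1 and Stac2 were not called. Arl5c, a GTPase of the ARF family, had a log2 fold change of -0.23 (SE 0.29), Cacnb1, a beta subunit of calcium channels, 0.10 (SE 0.11), and the ribosomal protein gene Rpl19 -0.09 (SE 0.17). B230217C12Rik, further from Thra than Plxdc1, fell outside the threshold although its groups did not overlap. Controls averaged 25.4 ± 3.07 CPM (SD, n = 4) and mutants 19.2 ± 0.952 CPM (SD, n = 3), with a difference of -0.40 on the log2 scale (SE 0.14, edgeR adjusted p 0.101). Limma-voom did call B230217C12Rik. The next member beyond Stac2, Fbxl20, part of a ubiquitin ligase, had many reads and a log2 fold change of -0.08 (SE 0.13).

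The largest differences of the window sat side by side in the keratin cluster. The antisense gene A830036E02Rik (99416956 to 99425497, plus strand) begins 648 kb beyond Thra, and the keratin gene Krt20 (99428403 to 99438150, minus strand) is separated from its far end by 2.9 kb. A830036E02Rik had 205, 232, 219 and 202 reads in controls and 1, 2 and 5 reads in mutants, that is 16.3, 17.5, 16.7 and 16.3 CPM against 0.0782, 0.184 and 0.391 CPM. Controls were alike and mutants were close to no reads. The pooled level of controls was 76.1 times that of mutants (95% exact interval 38.5 to 177, which covers counting error only). The fitted log2 fold change was -6.19 (SE 0.32, edgeR adjusted p 7.63e-07), the largest fall among all genes called lower.

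Krt20, a type I keratin known from intestinal epithelium, had 42, 63, 38 and 49 reads in controls and 2, 2 and 3 reads in mutants. In CPM these were 3.33, 4.76, 2.89 and 3.95 against 0.156, 0.184 and 0.235. The lowest control thus had 38 reads and the highest mutant 3. The pooled ratio of controls to mutants was 19.5 (95% exact interval 9.27 to 49.1). The fitted value of -4.21 on the log2 scale (SE 0.42, edgeR adjusted p 8.84e-05) was the 7th largest fall among the genes called lower. Both genes were called in each of the 16 alternative fits, with log2 fold changes of -6.94 to -5.78 for A830036E02Rik and -4.38 to -3.91 for Krt20.

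Of the span of A830036E02Rik, 62.1% is shared with Krt12 on the other strand, and 16.7% of its exon bases fall on exons of that gene. Krt12, a keratin of the cornea, had 17, 14, 17 and 10 reads in controls and 6, 10 and 14 in mutants. The groups overlapped and the fitted difference was -0.45 on the log2 scale (SE 0.42, edgeR adjusted p 0.601). A830036E02Rik in turn covers 80.4% of the Krt12 span and 54.4% of its exon bases. Reads there cannot be assigned to 1 gene, so these few reads say little about Krt12. No other annotated gene overlaps Krt20. Keratinocyte markers were near 0: Krt5, Dsp and Trp63 were below the minimum for testing, and the 4 markers summed to 0.913 to 2.66 CPM in controls and 2.19 to 2.74 CPM in mutants.

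The sequences just before the annotated starts of these 2 neighbours are given because the genes fell together. They are the 250 bases upstream of the RefSeq start in build GRCm38.p6, written on the gene's own strand, at chr11:99416993-99417242 (plus) and chr11:99438154-99438403 (minus). Capitals mark AGGTCA or its complement TGACCT, the hexamer that thyroid hormone receptors and related nuclear receptors bind. The RefSeq start of A830036E02Rik lies inside the GENCODE span, and 143 of the 250 bases fall in GENCODE exons of the same gene.
A830036E02Rik: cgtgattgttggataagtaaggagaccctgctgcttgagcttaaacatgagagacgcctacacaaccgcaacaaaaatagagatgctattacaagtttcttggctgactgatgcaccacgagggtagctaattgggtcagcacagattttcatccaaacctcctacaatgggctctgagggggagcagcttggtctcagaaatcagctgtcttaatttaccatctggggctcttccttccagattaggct
Krt20: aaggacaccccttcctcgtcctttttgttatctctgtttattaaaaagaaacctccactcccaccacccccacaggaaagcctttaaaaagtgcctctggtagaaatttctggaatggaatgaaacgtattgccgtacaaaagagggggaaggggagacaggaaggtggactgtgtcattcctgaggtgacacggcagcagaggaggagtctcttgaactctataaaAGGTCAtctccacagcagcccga
The hexamer occurs 1 time in the Krt20 stretch, directly after the letters tataaa and near the start, and 0 times in that of A830036E02Rik. Among the 52 tested members with a RefSeq promoter window of 300 bases, 6 (11.5%) held AGGTCA on either strand, against 18.1% of 27025 genes. A pair of AGGTCA in the same direction with any 4 letters between, searched on both strands, was in 0 of the 52 windows and in 4 of the 27025. The paired form includes the single one. A match describes the letters only.

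The rest of the keratin family was mostly silent. Of 50 members named as keratins or keratin-associated proteins, 4 were tested and 27 had 0 counts in every library. Krt222, a keratin-like gene, had the most reads of the 4. It was at 51.3, 42.8, 47.7 and 45.5 CPM in controls and 30.6, 36.4 and 37.5 CPM in mutants, with every mutant below every control. Its log2 fold change was -0.43 (SE 0.12, edgeR adjusted p 0.0462), the called member closest to the threshold. It was no longer called without control 1 (adjusted p 0.0563), control 2 (0.0667), control 3 (0.123), mutant 6 (0.203), mutant 7 (0.125) or mutant 8 (0.102), nor with no low-count filter (0.0541). Krt10, a keratin of the upper epidermis, had 18.4 ± 0.956 CPM (SD, n = 4) against 17.5 ± 1.60 CPM in mutants (SD, n = 3) and overlapped between the groups.

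A few keratins below the minimum for testing also differed in their raw reads, and they are named here after their values were seen. Krt19, a keratin of simple epithelia, had 2, 0, 3 and 3 reads in controls and 18, 15 and 7 in mutants. With no low-count filter its log2 fold change was 2.75 (edgeR adjusted p 0.00769), opposite in direction to Krt20. Krt23 had 8, 2, 3 and 3 reads in controls and 0 in each mutant (log2 fold change -5.02, edgeR adjusted p 0.0566 with no filter). Krt36 had 0 reads in each control and 14 in the mutants together (edgeR adjusted p 0.02 with no filter). At these counts the fitted fold changes depend on the prior count and bound nothing.

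**Figure D3:**
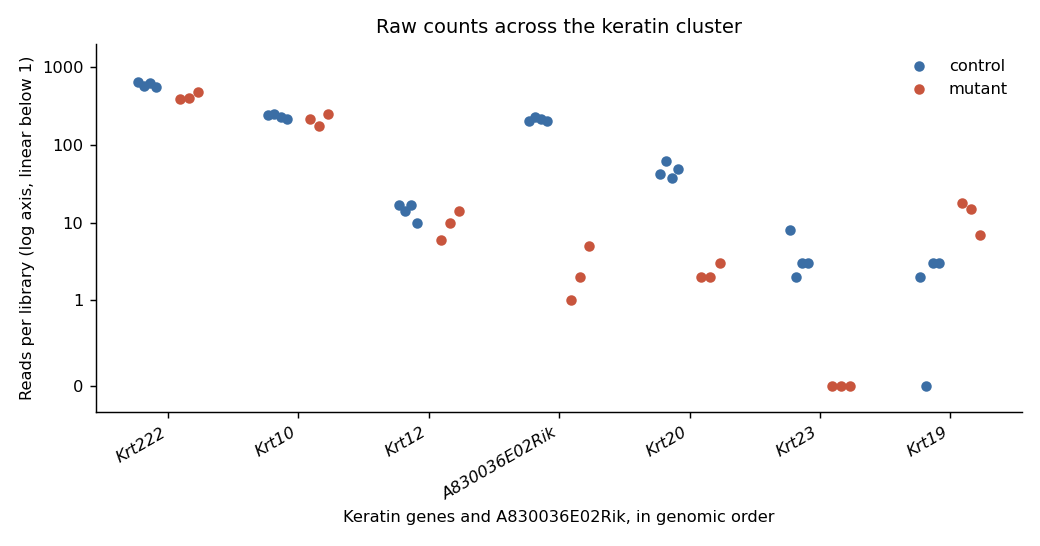
Reads per library (y axis, log scale, linear below 1) of 6 keratin genes and A830036E02Rik in genomic order (x axis), controls in blue and mutants in red. A830036E02Rik and Krt20 drop to 1 to 5 reads in mutants, whereas Krt10 and Krt12 on the near side overlap between the groups.

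At the telomeric end of the window, Jup and P3h4 were higher in mutants. Jup encodes plakoglobin, which ties cadherins to the cytoskeleton at cell junctions, and lies 1600 kb from Thra on the minus strand (100368958 to 100397763). Its level was 8.72, 8.99, 8.22 and 7.74 CPM in controls and 12.8, 17.1 and 14.8 CPM in mutants. Every mutant exceeded every control, and the mutants were the more spread. Its log2 fold change of 0.82 passed the test (SE 0.17, edgeR adjusted p 0.0088), and without mutant 7 it was 0.72 (adjusted p 0.0634).

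P3h4, which belongs to the prolyl 3-hydroxylase family and takes part in collagen modification, lies 10.7 kb beyond Jup on the same strand (100408456 to 100414836). It was at 6.74, 7.33, 5.33 and 5.97 CPM in controls and 10.6, 9.64 and 12.2 CPM in mutants. The groups did not overlap. P3h4 was higher by 0.77 on the log2 scale (SE 0.19, edgeR adjusted p 0.0244), and the call was lost without control 3 (adjusted p 0.0816), mutant 6 (0.082), mutant 7 (0.0565) or mutant 8 (0.129). Hap1, whose product binds huntingtin, ends 12.8 kb before Jup on the same strand and rose from 65.6 ± 9.20 CPM (SD, n = 4) to 264 ± 11.6 CPM (SD, n = 3). The next genes beyond P3h4 were not called. Fkbp10, a collagen chaperone, had few reads and a value of -0.65 on the log2 scale (SE 0.41), and the nucleotidase Nt5c3b was at -0.01 (SE 0.10).

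The upstream sequences of Jup (chr11:100397791-100398040, minus strand) and of Rapgefl1 (chr11:98836535-98836784, plus strand) are shown as the called higher members for which a RefSeq window was matched, with the same 250 bases and marks.
Jup: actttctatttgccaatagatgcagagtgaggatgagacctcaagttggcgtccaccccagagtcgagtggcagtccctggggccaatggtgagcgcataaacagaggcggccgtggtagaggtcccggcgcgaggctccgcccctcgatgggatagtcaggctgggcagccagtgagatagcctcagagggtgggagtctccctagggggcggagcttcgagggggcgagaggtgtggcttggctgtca
Rapgefl1: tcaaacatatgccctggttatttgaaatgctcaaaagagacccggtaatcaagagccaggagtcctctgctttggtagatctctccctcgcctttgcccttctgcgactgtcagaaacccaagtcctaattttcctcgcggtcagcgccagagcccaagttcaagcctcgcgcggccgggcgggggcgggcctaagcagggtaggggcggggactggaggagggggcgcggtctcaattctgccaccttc
Neither held the hexamer, and both were richer in G and C, at 62.0% and 58.8%, than the stretches of A830036E02Rik (46.8%) and Krt20 (48.0%).

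**Figure D4:**
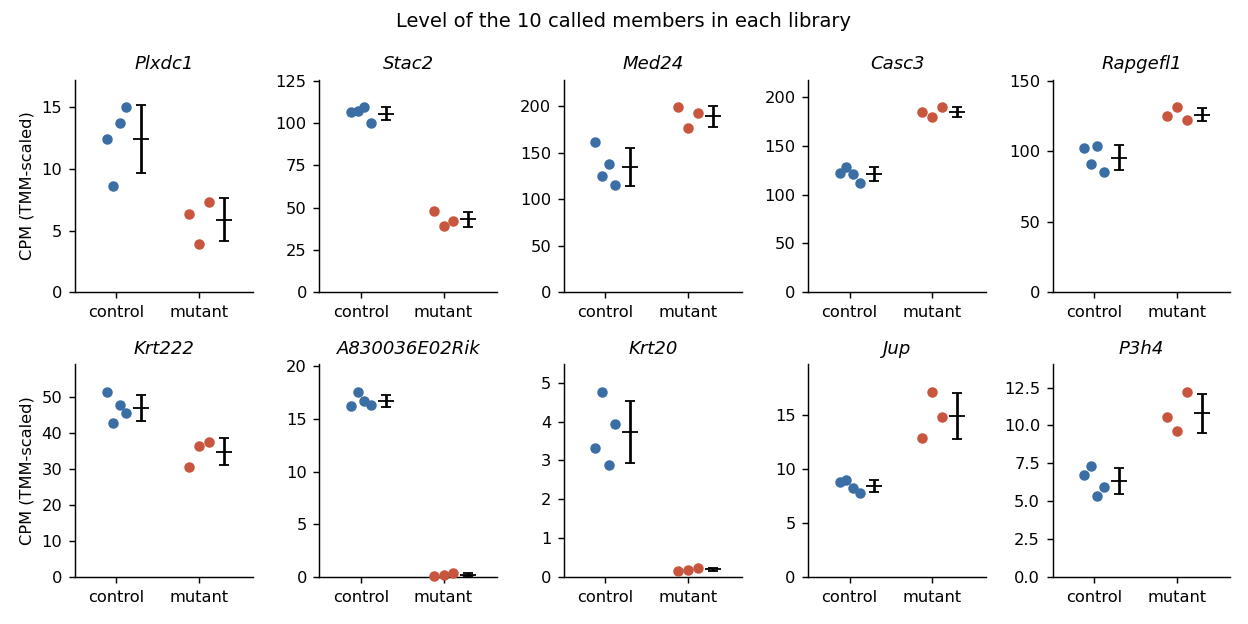
Level of the 10 called members in CPM (y axes, each from 0) in controls (blue) and mutants (red), 1 point per library, with the mean and SD beside each group. In each panel the 2 groups are separate, from near 0 in mutants for A830036E02Rik and Krt20 to a difference of 1.32 times for Rapgefl1.

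By distance of the gene start from the nearest end of Thra, called members were spread unevenly. Within 0.25 Mb 3 of 11 were called (27.3%, 3 higher), from 0.25 to 0.5 Mb 1 of 9 (11.1%, lower), from 0.5 to 1 Mb 4 of 17 (23.5%, 4 lower) and from 1 to 2 Mb 2 of 39 (5.13%, 2 higher). Further along chromosome 11, in genes of the same types, 11 of 108 were called from 2 to 5 Mb (10.2%), 5 of 68 from 5 to 10 Mb (7.35%) and 88 of 855 beyond 10 Mb (10.3%). On the other chromosomes 1305 of 12912 were called (10.1%). The classes near Thra hold few genes, and no test of the shares was made. The classes within 2 Mb and the sides of Thra count members only, while further out no genes were set aside. Left out are thus Rara (within 0.25 Mb) and Hap1 and Kcnh4 (1 to 2 Mb), all telomeric and called higher. Thra, Med1 and Erbb2, which edgeR did not call, are left out too. The telomeric side had 7 called of 31 (22.6%) and the centromeric side 3 of 45 (6.67%), against 9.42% of all tested genes. Their median sizes of change were 0.43 and 0.13, against 0.21 over all tested genes. The telomeric median includes members with few reads, such as Cdc6 (SE 0.56), Top2a (SE 0.72) and Zfp385c (SE 0.52). The part of such members in that median was not tested. By strand, 3 of 32 members on the plus strand (9.38%) and 7 of 44 on the minus strand (15.9%) were called.

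**Figure D5:**
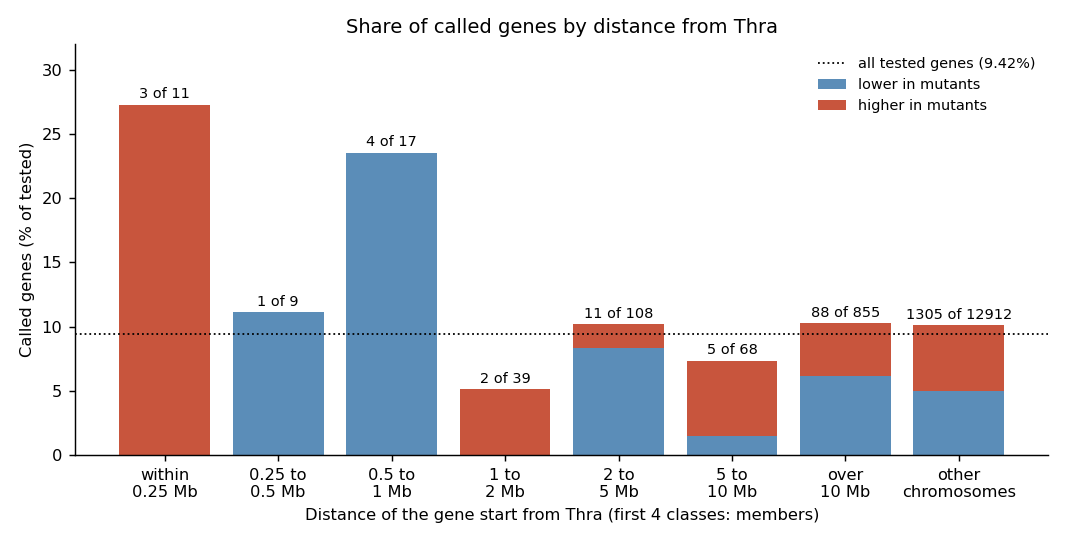
Called genes as a percentage of tested genes (y axis) by distance of the gene start from the nearest end of Thra (x axis), lower in blue and higher in red, with called and tested numbers above the bars and the share over all tested genes as a dotted line (9.42%). Bars of the first 3 classes rest on 9 to 17 genes each. The classes up to 2 Mb hold members only, without the genes set aside by name.

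The members were also sorted into 5 lists by what their products do. The share to set beside each list's count of called members is 9.42%, that of all tested genes. Each list holds few tested genes, and no test of a list was made. Of 18 members linked to transcription, chromatin or the cell cycle, 15 were tested and only Med24 was called, with a median log2 fold change of 0.13. The list includes Cbx1 (0.15), a reader of heterochromatin, Cdk12 (0.01), a kinase of RNA polymerase, the acetyltransferase Kat2a (-0.05) and Smarce1 (-0.07), a subunit of a chromatin remodelling complex, none of which was called. Of 18 members in neuronal signalling and membrane function, 13 were tested and 4 called, Stac2 and Plxdc1 lower and Rapgefl1 and Jup higher, with a median of 0.04. Uncalled members of that list were Srcin1 (-0.06), an adaptor that restrains Src kinase, Arhgap23 (0.16) and Ppp1r1b (0.03), which encodes the dopamine-regulated phosphatase inhibitor DARPP-32.

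Lipid and metabolic enzymes numbered 11, with 9 tested and 0 called by edgeR. At an unadjusted p under 0.05 there were 2, Acly and Pgap3, while DESeq2 called 0 and limma-voom 1. Their median log2 fold change was 0.01. Acly, which makes cytosolic acetyl-CoA, averaged 57.1 ± 1.86 CPM (SD, n = 4) without the mutant allele and 67.2 ± 5.48 CPM (SD, n = 3) with it, a difference of 0.23 on the log2 scale (SE 0.10, edgeR adjusted p 0.2). Pgap3, which remodels lipid anchors of proteins, was at 0.50 (SE 0.17, edgeR adjusted p 0.103), and it was called with the length offset. Cnp, an enzyme of oligodendrocyte myelin, had 17.5 ± 5.12 CPM (SD, n = 4) against 16.8 ± 0.879 CPM (SD, n = 3), a difference of -0.06 on the log2 scale (SE 0.21). The 7 oligodendrocyte markers summed to 153 to 191 CPM in controls and 169 to 203 CPM in mutants.

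Some uncalled members with larger point estimates had wide errors or overlapping groups. Epop, a partner of Polycomb complexes, had 91, 30, 51 and 57 reads in controls and 34, 27 and 40 in mutants, with a log2 fold change of -0.70 (SE 0.35). In CPM, every mutant lay within the range of controls. Cdk5rap3, which binds the activator of the neuronal kinase Cdk5, was at 45.0 ± 9.55 CPM (SD, n = 4) and 57.2 ± 6.39 CPM (SD, n = 3), a difference of 0.35 on the log2 scale (SE 0.16, edgeR adjusted p 0.232). With the length offset Cdk5rap3 was called. Neurod2, a transcription factor of glutamatergic neurons, had 109, 63, 71 and 76 reads in controls and 75, 53 and 124 in mutants, which overlap. The 6 glutamatergic markers overlapped as well, at 71.4 to 135 CPM in controls and 77.0 to 125 CPM in mutants.

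Of 14 members that make or handle proteins and RNA, 13 were tested and only Casc3 was called, with a median of 0.00. The other 3 of the 5 members with the highest mean level per kb of exon belong here. Per kb of exon, Npepps, an aminopeptidase of the cytosol, was at 26.4 CPM in controls and 28.5 CPM in mutants, with a log2 fold change of 0.11 (SE 0.11). Psmd3 was at 26.8 and 27.3 CPM per kb. Dnajc7, a co-chaperone, was at 24.4 and 26.0 CPM per kb, with a log2 fold change of 0.09 (SE 0.10). Gm11592, the other tested antisense gene, overlaps Npepps and had a log2 fold change of 0.16 (SE 0.32). Mrpl45, a mitochondrial ribosomal protein gene, was at -0.40 (SE 0.14, edgeR adjusted p 0.114). Mrpl45 was called with limma-voom, with the length offset, without control 4, without controls 1 and 4, and without control 4 and mutant 8. The 22 tested members in no list had a median of -0.06, with A830036E02Rik and P3h4 called.

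Among the 66 members that were not called, log2 fold changes ran from -0.70 to 0.92, 32 below and 34 above 0. Of the 46 with a mean over 10 CPM, 38 had a change smaller than 0.25 on the log2 scale in either direction, and the range was -0.46 to 0.50. The spread between libraries of a group was modest, with a median coefficient of variation of 14.3% in controls and 11.1% in mutants. Control 1 and control 4 differed along gene length over all tested genes (median log2 ratio 0.44 in genes shorter than 10 kb, -0.70 in those longer than 100 kb). The members are short, with a median span of 13.3 kb and 0 over 100 kb, and control 1 exceeded control 4 by a median of 0.17 over them. With an offset from gene length 14 members were called, all 10 among them, which is 18.4% against 16.7% of all tested genes. Without controls 1 and 4 the count was 13, again with all 10, or 16.5% against 16.7%.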

How the data were processed

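Per the labels' protocols, nuclear RNA of sorted nuclei was made into cDNA with SMART-Seq v4 and Nextera XT libraries and read in pairs on a NextSeq500, a chemistry that marks neither strand nor molecules. The deposited values are raw counts per gene. Per the submitters' processing notes, reads were aligned with Bowtie2 2.5.3 to mm10 (GRCm38), while the counting program and its strand setting are not given in the sources used here. Reads of overlapping genes on opposite strands may therefore be mixed, and p-values and intervals rest on PCR-amplified reads of 1 library per cortex.

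Counts were fitted in R 4.3.3 with edgeR 4.0.16 (filterByExpr, least count 10, least total 15, TMM, robust quasi-likelihood, genotype only), with Benjamini-Hochberg adjustment over all 16448 tested genes and a threshold of 0.05. The SE is the log2 fold change divided by the square root of F. Alternatives used other filters, RLE factors, an offset from gene length, DESeq2 1.42.0, limma-voom (limma 3.58.1) and each library left out. In counts simulated for this comparison over 16197 genes, 70 of 100 genes changed by 1 log2 unit and 96 of 100 changed by 2 were recovered, with 7 false calls. Upstream sequences came from RefSeq (GRCm38.p6), where 52 of the 76 tested members matched by symbol.

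The members and lists were chosen with earlier results of these data known, and so were the tests. Genes named by rule were the called members, those within 0.25 Mb, the tested antisense genes, the 5 highest per kb of exon and those next to the threshold. Others, such as neighbours of called members and examples from lists, were picked after their values were seen.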

Additional observations from a re-analysis of the deposited data

How the results depend on the processing

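Stac2, Casc3, A830036E02Rik and Krt20 were called in all 16 alternatives, and the other 6 of the 10 called members lost the call in at least 1 while 0 of the 10 changed direction. Over all genes, 1549 calls became 3147 with limma-voom, 2753 with the length offset, 2778 without controls 1 and 4, and 734 (without mutant 7) to 2347 (without control 4) on leaving out 1 library. Members called went from 10 to between 4 and 11 on leaving out 1 library, those lower from 5 to between 3 and 6, and those higher from 5 to between 1 and 6. Limma-voom called 8 lower, and 3 were called higher without control 4 and mutant 8. Values near 0 changed sign: Ormdl3 (0.01) ran from -0.06 to 0.15 and Gm12355 (-0.11) from -0.24 to 0.01 on leaving out 1 library. Psmd3 (0.02) ran from -0.07 to 0.10, and was -0.03 with limma-voom and -0.01 both without controls 1 and 4 and without control 4 and mutant 8. Ormdl3 was -0.00 without control 4 and mutant 8, and Cdc6 -0.01 without controls 1 and 4. The cause was not tested. Leaving out pairs of libraries was chosen after seeing the data. No paired analysis was made because the labels give no pairing of controls with mutants. Depth limits what can be seen in members with few reads, such as most keratins.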

Other observations

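Hcrt, which encodes the orexin neuropeptides of the hypothalamus and lies in the same window, stayed below the minimum for testing. It had 4 to 9 reads in controls (23 in all) and 1 to 3 in mutants (5 in all), with a log2 fold change of -1.65 and an adjusted p of 0.383 from edgeR with no low-count filter. Over chromosomes, the share of tested genes that were called ran from 7.55% on chromosome 12 to 13.0% on chromosome 15, and chromosome 11 stood at 10.5% (117 of 1113).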
